A study of Mus musculus with 10 samples.

Results

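Interferon-stimulated genes are genes whose transcription rises when a cell senses interferon, and 34 of them, chosen by name, were followed here in mouse liver. They hold RNA sensors, transcription factors of the response, and antiviral effectors. A probe was found for 32 of the 34 through the RefSeq or Ensembl identifier of each probe, and 31 were tested, out of 15089 genes tested in all. Mx1 and Mx2, GTPases that block viral replication, had no probe named here and were not analysed. Oas3 had 1 probe, well above background on 3 of 5 control arrays and 1 of 5 ethanol arrays, which was too dim to test.

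The liver came from inbred male mice, C57BL/6J +/+ by their label, bought at 7 weeks of age and acclimatized for 1 week. The control group (HFD control, 5 mice) ate a 60% high-fat diet for 4 months with no ethanol. The ethanol group (HFD ethanol, 5 mice) ate the same diet for the same time and drank ethanol in its water for the last 3 months, at 5 g/kg/day in the first week and 10 g/kg/day afterwards. All 10 mice therefore carried the high-fat diet, and no mouse on another diet was measured. Each array held Cy3-labelled RNA of 1 mouse, and the 5 mice per group were a random pick from groups of 10.

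Interferons are secreted proteins that bind receptors on the cell surface, and the receptors activate Janus kinases, which phosphorylate STAT proteins, STAT2 among them. Together with IRF9 these form a complex that enters the nucleus and binds the interferon-stimulated response element (ISRE) of its target genes, while other STAT complexes bind another element, GAS. The products degrade viral RNA, stop translation, tag proteins with ISG15 or raise the number of sensors, and some of them damp the response again. In liver, hepatocytes, Kupffer cells and recruited immune cells can all respond to interferon.

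The promoters were searched for these elements. The genes were chosen by name as interferon-stimulated, so the share with an element is not independent of that choice. RefSeq promoter windows of 300 bases (250 before to 50 after the start of transcription, build GRCm38.p6) matched 26 of the 34 genes. The others, Oas2, Mx1, Mx2, Usp18, Ifi27l2a, Dhx58, Parp14 and Rtp4, are named only. The ISRE core, searched as GAAA, any 2 bases and GAAA again on both strands (so also as TTTC, any 2 bases and TTTC), was present in 16 of the 26 (61.5%), against 3.99% of the 27025 genes with a window. The GAS letters TTCNNNGAA, which read the same on both strands, were present in 6 of the 26 (23.1%), against 9.55% of all genes. Both were present in 4 genes, and matches of the 2 motifs overlapped each other in 1, Bst2. Among tested genes, 15 had the ISRE core, of which 14 were lower with ethanol (median log2 fold change -0.32), and 10 had a window without it, of which 8 were lower (median -0.25). Oas1g, which was tested through its control arrays only, was among the 14. These matches describe letters and were not tested against the fold changes.

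Sequences of 3 genes frame the results, written from the 5′ to the 3′ end of the gene's strand and ending at the base before the start of transcription, with capitals for the ISRE core. Isg15 (chr4:156200819-156201068, minus strand) has 3 overlapping cores, which begin 78 bases before the start. Ifit1 (chr19:34640639-34640888, plus strand) has 2 separate cores, the first 104 bases before the start. Xaf1 (chr11:72301379-72301628, plus strand) is shown because it had the smallest p of the 31 genes, and its window holds no match.
Isg15: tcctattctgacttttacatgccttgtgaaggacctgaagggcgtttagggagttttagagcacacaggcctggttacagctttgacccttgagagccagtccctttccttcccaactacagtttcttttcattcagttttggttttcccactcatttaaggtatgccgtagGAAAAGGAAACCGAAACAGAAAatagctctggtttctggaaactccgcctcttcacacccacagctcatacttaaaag
Ifit1: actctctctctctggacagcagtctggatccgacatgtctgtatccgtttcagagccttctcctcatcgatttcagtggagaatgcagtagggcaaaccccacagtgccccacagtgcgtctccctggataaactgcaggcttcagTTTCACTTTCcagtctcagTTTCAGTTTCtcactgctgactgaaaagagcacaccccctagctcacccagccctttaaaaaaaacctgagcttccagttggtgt
Xaf1: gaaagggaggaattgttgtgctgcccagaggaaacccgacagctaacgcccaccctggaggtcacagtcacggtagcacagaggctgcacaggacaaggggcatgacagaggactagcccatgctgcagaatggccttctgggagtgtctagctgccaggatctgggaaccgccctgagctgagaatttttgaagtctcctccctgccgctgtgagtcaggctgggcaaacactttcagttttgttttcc

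Shorter stretches, with 12 bases on either side of the core, show how the element recurs in the families described further on. Those of the guanylate-binding proteins all lie on chromosome 3, on the plus strand, at chr3:142620592-142620625 for Gbp2, chr3:142559987-142560026 for Gbp3 and chr3:142530271-142530304 for Gbp7. Those of Oas1a (chr5:120907518-120907557, minus strand) and Oas1g (chr5:120887604-120887643, minus strand) are the same letters. The others are Ifit3 (chr19:34583361-34583428, plus strand), Rsad2 (chr12:26456551-26456584, minus strand), Stat2 (chr10:128270264-128270297, plus strand) and 1 of the 2 windows of Trim30a (chr7:104465208-104465241, minus strand).
Gbp2: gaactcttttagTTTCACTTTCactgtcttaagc
Gbp3: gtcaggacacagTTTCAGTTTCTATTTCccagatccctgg
Gbp7: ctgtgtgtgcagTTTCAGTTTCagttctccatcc
Oas1a: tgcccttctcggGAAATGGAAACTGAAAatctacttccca
Oas1g: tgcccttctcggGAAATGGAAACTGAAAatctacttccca
Ifit3: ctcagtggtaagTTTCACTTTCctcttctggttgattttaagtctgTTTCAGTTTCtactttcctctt
Rsad2: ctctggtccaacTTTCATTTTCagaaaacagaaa
Stat2: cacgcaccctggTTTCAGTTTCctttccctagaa
Trim30a: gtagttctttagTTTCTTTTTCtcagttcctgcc

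Levels are log2 of the processed spot signal divided by the 75th percentile of signals on its array, so that 0 is the level of that percentile and 1 unit is a doubling. Between 55.5% and 59.1% of spots on each array were well above background, no spot was saturated, and 30 of the 31 tested genes were well above background on all 10 arrays. The exception was Oas1g, which 5 control arrays and 3 ethanol arrays detected. It was tested only because its control arrays met the filter of 4 of 5 arrays of 1 group. The tissue label was met by its markers, since all 8 hepatocyte markers were tested and albumin (Alb) lay at 10.19 ± 0.18 (SD, n = 5) in controls and 10.25 ± 0.10 (SD, n = 5) with ethanol. The arrays lay on 3 slides, as the file headers give them. Slide 1 held control mice 4 and 5 and ethanol mouse 4, slide 2 held control mice 1 and 3, and slide 3 held control mouse 2 and ethanol mice 1, 2, 3 and 5.

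Most of the interferon-stimulated genes lay lower in the livers of the ethanol group, by small amounts. The difference was negative for 26 of the 31 genes (83.9%, where 43.2% of all genes tested were lower), and for 30 of 31 under quantile normalization, where 53.7% of all genes were lower. The median log2 fold change was -0.25 over the 31 genes and 0.03 over all genes tested. Fold changes ran from -0.57 for Trim30a to 0.09 for Herc6, and 14 genes, Oas1g among them, were lower by more than 0.3. None of the 31 passed an adjusted p of 0.05 in limma, a threshold that 0.0199% of all genes tested passed. The smallest adjusted p among them was 0.156, for Xaf1. At an unadjusted p under 0.05 in limma, 7 of the 31 were lower (22.6%, against 5.22% of all genes tested) and 0 were higher (against 8.12%). The 7 were Xaf1, Trim30a, Rtp4, Isg15, Ifi44, Parp14 and Gbp3. Without ethanol mouse 1 the count was 11 (6.56% of all genes). It was 3 without slide 2 (3.81% of all genes), 4 within slide 3 (1.9%) and 4 with the slide as a fixed block (2.51%). The 5 mice of each group did not overlap for 2 genes, Xaf1 and Rtp4, both lower with ethanol (6.45%, against 1.07% of all genes tested), and for 0 genes higher with ethanol (against 1.97%). The count of such lower genes was 4 without control mouse 3 (2.39% of all genes) and 5 without control mouse 4 (1.25%). It was 1 with normexp background correction (1.03%), and without ethanol mice 2 and 3, which shared slide column 1, it was 4 (2.47%), with 1 gene higher (5.63%). In whole tissue, fewer cells of a type and less RNA per cell cannot be told apart.

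**Figure D1:**
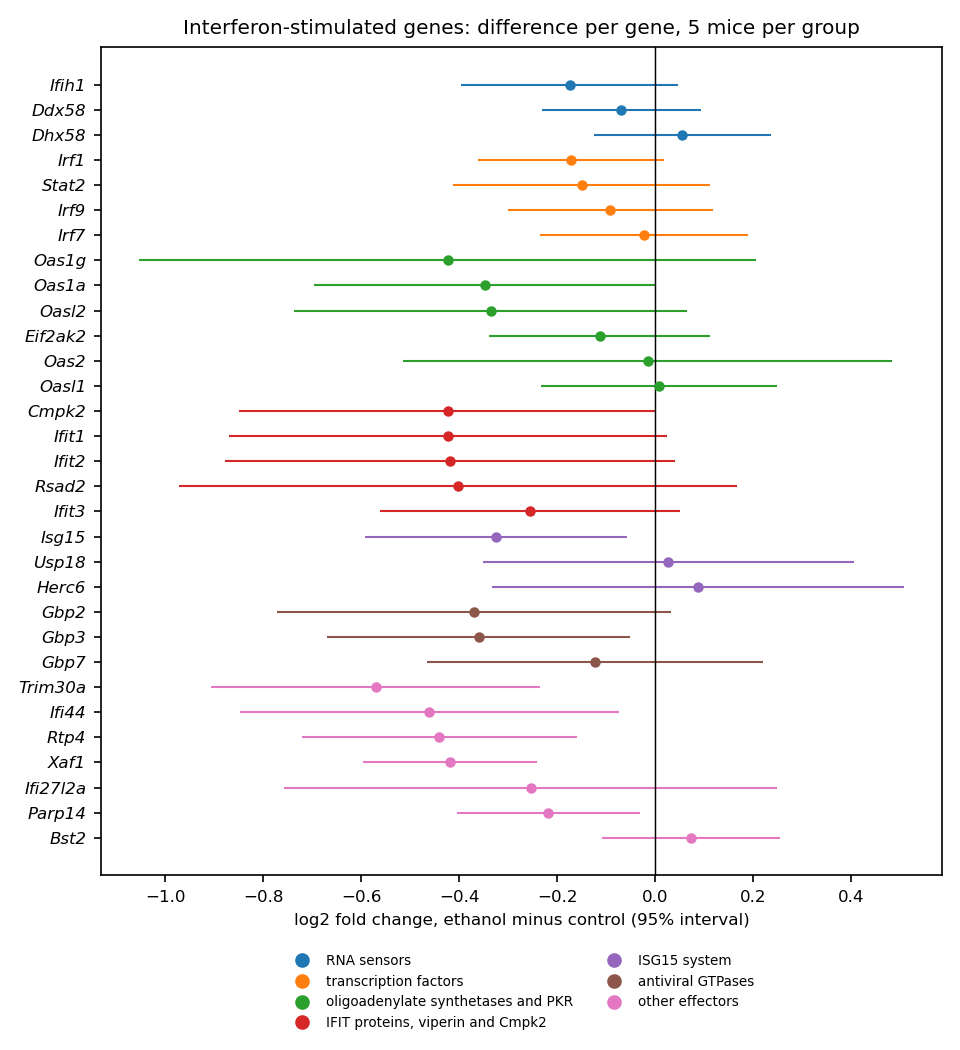
Log2 fold change of each of the 31 tested genes, ethanol minus control, on the x axis, with limma's 95% interval as a line and the genes on the y axis coloured by role. The interval lies below 0 for 7 genes, 26 of the 31 points are below 0 (30 of 31 under quantile normalization), and the points run from -0.57 for Trim30a to 0.09 for Herc6.

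The cytoplasmic sensors of viral RNA had small differences. Ddx58 (RIG-I), which recognizes short RNA with a free end, had a log2 fold change of -0.07 ± 0.07 (SE), with control mice from 2.12 to 2.30 and ethanol mice from 2.03 to 2.29. Ifih1 (MDA5), which recognizes long double-stranded RNA, had -0.17 ± 0.10 (SE), with controls from 1.12 to 1.52 and ethanol mice from 0.92 to 1.29. Dhx58 (LGP2), a relative of both that regulates them, had 0.06 ± 0.08 (SE). Its fold change stayed above 0 in all 29 alternative processings, some of which cannot change a fold change. The groups overlapped for all 3 sensors. Ddx58 had 3 further probes with differences of -0.15, -0.42 and -0.30, so all 4 of its probes read lower with ethanol, to different extents.

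The 4 transcription factors of the pathway were lower in 4 of 4, with log2 fold changes no lower than -0.17, and none passed the threshold. Stat2, the STAT particular to the interferon complex, lay at 2.41, 2.26, 2.14, 2.37 and 2.10 in control mice 1 to 5 and at 2.31, 1.89, 1.83, 2.27 and 2.23 in ethanol mice 1 to 5. Only ethanol mice 2 and 3 lay under the lowest control, and the difference was -0.15 ± 0.12 (SE), limma adjusted p = 0.573. Irf9, which gives the complex its DNA contact, lay at 2.46, 2.68, 2.56, 2.55 and 2.58 in controls and at 2.41, 2.58, 2.55, 2.64 and 2.19 with ethanol. Ethanol mouse 5 was the lowest and the rest lay among or near the controls, with a difference of -0.09 ± 0.09 (SE), limma adjusted p = 0.675. Irf7, the factor that amplifies interferon production, lay at 4.65, 4.71, 4.68, 4.46 and 4.88 in controls and at 4.83, 4.51, 4.66, 4.72 and 4.53 with ethanol. The groups overlapped throughout, and the difference of -0.02 ± 0.10 (SE) had a 95% interval from -0.24 to 0.19. Irf1, an activator that interferon gamma induces strongly, had -0.17 ± 0.09 (SE), limma adjusted p = 0.402. Other probes disagreed in sign for Stat2 (0.11) and Irf7 (0.05), but not for Irf9 (-0.10) or Irf1 (-0.40).

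The oligoadenylate synthetases, which make a messenger that activates an RNA-cutting enzyme, had unequal differences. Oas1a lay at 2.40, 1.91, 2.14, 2.21 and 2.47 in controls and at 2.34, 1.50, 1.76, 1.93 and 1.86 with ethanol. Ethanol mouse 1 was as high as the controls and the other ethanol mice lay at or under the low end of them, with a difference of -0.35 ± 0.16 (SE), limma adjusted p = 0.375. Its neighbour Oas1g was dim and had -0.42 ± 0.28 (SE), and -0.06 with normexp background correction. The probes' sequences were not used here, so whether each reads only its own copy of these near-identical genes is uncertain. Oasl2, an oligoadenylate synthetase-like protein, had -0.34 ± 0.18 (SE), whereas Oas2 had -0.02 ± 0.22 (SE). Oasl1, which represses Irf7 translation, had 0.01 ± 0.11 (SE) on the probe used and 0.20 ± 0.11 (SE) on its dimmer probe. The 95% interval of Oas2 ran from -0.51 to 0.48, and control mouse 1 alone reached 0.77. Eif2ak2 (PKR), a kinase that stops translation on sensing double-stranded RNA, had -0.11 ± 0.10 (SE). In all, 5 of 6 tested genes of this group, Oas1g among them, were lower, with a median of -0.22. On the same probes all 6 were lower under quantile normalization.

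The IFIT genes with Rsad2 and Cmpk2 were lower with ethanol in 5 of 5, with a median of -0.42. IFIT proteins bind viral RNA and block its translation. Ifit1 lay at 0.18, 0.59, 0.30, -0.48 and -0.03 in controls and at -0.30, 0.05, -0.17, -0.40 and -0.73 with ethanol. Control mice 1, 2 and 3 were above every ethanol mouse, while control mouse 4 lay among the lowest, and the difference was -0.42 ± 0.20 (SE), limma adjusted p = 0.387. Ifit2 lay at -1.50, -2.05, -2.42, -2.34 and -2.01 in controls and at -2.07, -2.71, -2.95, -2.45 and -2.24 with ethanol. Control mouse 1 was the highest and ethanol mice 2 and 3 the lowest, with a difference of -0.42 ± 0.21 (SE), limma adjusted p = 0.398. Ifit3 had -0.26 ± 0.14 (SE), with controls from 1.35 to 2.06 and ethanol mice from 1.34 to 1.81.

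Cmpk2, a mitochondrial nucleotide kinase whose gene lies beside Rsad2, lay at 0.58, 0.79, -0.03, 0.15 and -0.06 in controls and at -0.15, -0.13, 0.10, -0.59 and 0.07 with ethanol. Control mice 1 and 2 stood above all others and ethanol mouse 4 below, and the remaining mice of both groups were mixed, with a difference of -0.42 ± 0.19 (SE), limma adjusted p = 0.375. Rsad2 (viperin), a radical SAM enzyme that makes a chain-ending nucleotide from CTP, had -0.40 ± 0.26 (SE) on its brighter probe, where the groups overlapped. On its dimmer probe the difference was -0.77 ± 0.23 (SE, limma unadjusted p = 0.0065), with controls from -1.76 to -0.85 and ethanol mice from -2.68 to -1.78, and there the groups did not overlap. The brighter probe was used throughout, by the rule for genes with several probes.

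The 3 genes of the ISG15 system had differences of both signs. Isg15, a ubiquitin-like protein that is attached to other proteins during the response, lay at 3.78, 3.91, 3.73, 3.33 and 3.69 in controls and at 3.55, 3.43, 3.30, 3.44 and 3.11 with ethanol. Controls 1, 2, 3 and 5 were above all 5 ethanol mice and control 4 was among them. The control mean was 3.69 ± 0.22 (SD, n = 5) and the ethanol mean 3.37 ± 0.17 (SD, n = 5), a difference of -0.32 ± 0.12 (SE) or 1.25 times less signal, limma adjusted p = 0.319. Usp18, the protease that removes ISG15 and blocks the receptor, lay at 1.64, 1.79, 1.71, 1.17 and 1.71 in controls and at 2.02, 1.42, 1.20, 1.86 and 1.63 with ethanol. Control mouse 4 was again the lowest of its group, ethanol mice 1 and 4 were above every control, and the difference was 0.03 ± 0.17 (SE), limma adjusted p = 0.956. Herc6, the ligase that attaches ISG15 in the mouse, had 0.09 ± 0.19 (SE). The differences of Usp18 and Herc6 were just below 0 under quantile normalization.

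Guanylate-binding proteins are large GTPases that attack vacuoles holding microbes, and all 3 tested were lower with ethanol. Gbp3 lay at 0.70, 0.96, 1.04, 0.76 and 0.90 in controls and at 0.81, 0.33, 0.16, 0.82 and 0.43 with ethanol. Ethanol mice 2, 3 and 5 lay under all controls and ethanol mice 1 and 4 among them, and the difference was -0.36 ± 0.14 (SE), limma adjusted p = 0.325. Gbp2 lay at -0.14, -0.09, 0.0022, 0.48 and 0.10 in controls and at 0.03, -0.62, -0.76, -0.04 and -0.12 with ethanol. Here only ethanol mice 2 and 3 lay under all controls, with a difference of -0.37 ± 0.18 (SE), limma adjusted p = 0.396. Gbp7 had -0.12 ± 0.15 (SE), and its lowest value, -1.78, was that of ethanol mouse 5.

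Of the 7 remaining effectors 6 were lower, with a median of -0.42, and 5 of the 7 genes with an unadjusted p under 0.05 were here. Xaf1, a zinc finger protein that promotes cell death by opposing an inhibitor of apoptosis, lay at 0.80, 0.75, 0.60, 0.55 and 0.62 in controls and at 0.39, 0.21, 0.32, 0.17 and 0.14 with ethanol. Every ethanol mouse lay under every control. The means were 0.66 ± 0.11 (SD, n = 5) and 0.24 ± 0.11 (SD, n = 5), the difference was -0.42 ± 0.08 (SE) or 1.34 times less signal, and the limma adjusted p was 0.156. Over the 29 alternatives, some of which cannot change a fold change, its difference stayed between -0.49 and -0.39. Rtp4, a chaperone of receptors that interferon induces, lay at 2.94, 2.77, 3.06, 3.04 and 3.09 in controls and at 2.56, 2.67, 2.63, 2.75 and 2.09 with ethanol. The groups were separate by a narrow margin, between control mouse 2 and ethanol mouse 4, and ethanol mouse 5 lay far under the rest. The difference was -0.44 ± 0.13 (SE), limma adjusted p = 0.233.

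Trim30a, a TRIM protein that restrains inflammatory signalling, had the largest difference of the set, with controls at -0.01, 0.06, -0.09, -0.40 and -0.12 and ethanol mice at -0.28, -0.98, -1.02, -0.52 and -0.62. Only ethanol mouse 1 lay above the lowest control, mouse 4, and the difference was -0.57 ± 0.15 (SE) or 1.49 times less signal, limma adjusted p = 0.212. Ifi44, an interferon-induced protein that slows cell growth, lay at -0.61, -0.52, -0.78, -0.96 and -0.79 in controls and at -0.85, -1.52, -1.69, -0.94 and -0.97 with ethanol. Ethanol mice 2 and 3 stood far below, and the other 3 lay near the low controls, with a difference of -0.46 ± 0.17 (SE), limma adjusted p = 0.321. Parp14, an ADP-ribosyltransferase, lay at 1.84, 1.69, 1.65, 1.75 and 1.67 in controls and at 1.43, 1.66, 1.56, 1.55 and 1.28 with ethanol. The groups met only at control mouse 3 and ethanol mouse 2, and the difference was -0.22 ± 0.08 (SE), limma adjusted p = 0.325. On its dimmer probe the difference was -0.11 ± 0.22 (SE). The mean of the 2 probes gave -0.17 ± 0.11 (SE), limma unadjusted p = 0.149. Ifi27l2a, a small membrane protein, had -0.25 ± 0.23 (SE), with ethanol mice spread from 2.52 to 3.98. Bst2 (tetherin), which holds budding virus on the cell surface, had 0.07 ± 0.08 (SE) and -0.03 under quantile normalization.

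**Figure D2:**
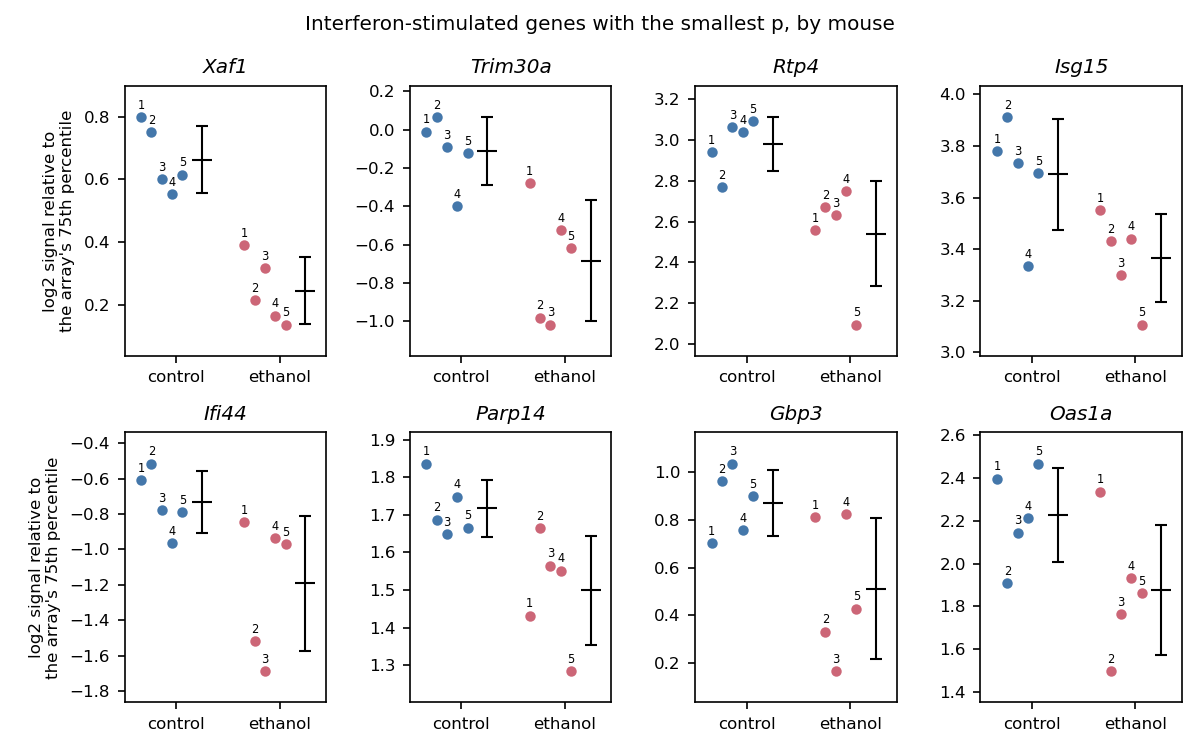
Level on each array (y axis, log2 of the signal over that array's 75th percentile) for the 8 genes with the smallest p, with 1 point per mouse labelled by its number in the group and the group mean ± SD (n = 5) as a black bar. The groups are separate for Xaf1 and Rtp4, while in the other 6 genes at least 1 ethanol mouse reaches the controls.

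The mice did not take equal parts in these differences. The lowest of the 10 values lay on an ethanol array for 26 of the 31 genes and the highest on a control array for 25. Ethanol mouse 5 held the lowest value of 12 genes, among them Isg15, Ifit1, Ifit3, Rtp4 and Xaf1, and ethanol mouse 3 of 8, among them Gbp2, Gbp3, Ifi44 and Trim30a. Control mice 1 and 2 held the highest value of 7 and 8 genes. The count of genes above their own mean over the 10 arrays was 22, 26, 21, 12 and 27 for control mice 1 to 5 and 21, 9, 7, 15 and 7 for ethanol mice 1 to 5. Thus, over these genes, ethanol mouse 1 stood with the controls and control mouse 4 with the ethanol group. These counts were not made over all genes tested, so whether the mice differed in these genes alone was not tested. Taking the median over the 31 genes of each mouse's deviation from the gene means, the controls averaged 0.11 ± 0.10 (SD, n = 5) and the ethanol mice -0.07 ± 0.12 (SD, n = 5). The ethanol SD was above the control SD for 19 of the 31 genes.

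**Figure D3:**
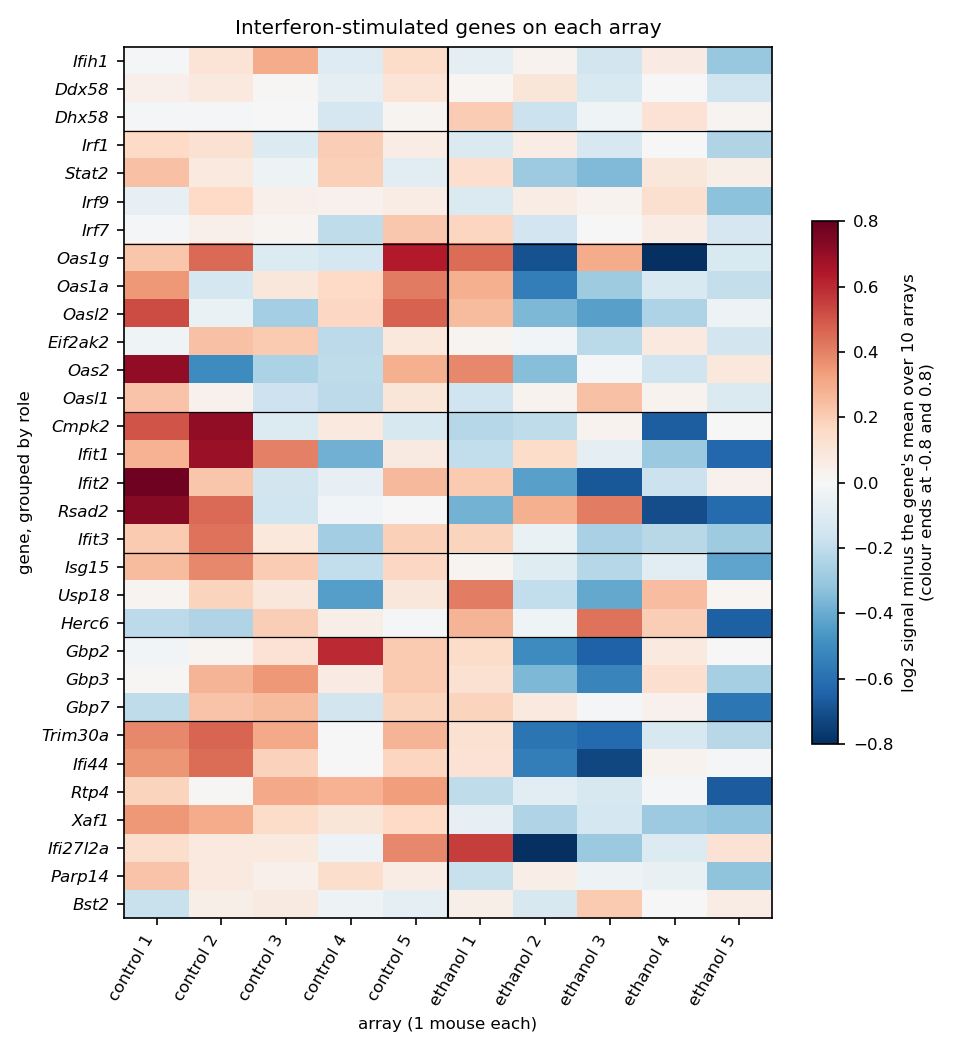
Log2 signal minus the gene's mean over the 10 arrays, as colour (blue below the mean, red above), for the 31 genes grouped by role on the y axis and the 10 arrays on the x axis. Red predominates in the controls except control mouse 4, and blue in ethanol mice 2, 3 and 5, where only 9, 7 and 7 genes lie above their mean, while 21 do in ethanol mouse 1.

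Slide and position on the slide were unevenly spread over the groups, and their part in the result was not tested beyond the following fits. Within slide 1 (2 control mice, 1 ethanol mouse, which is assumed to vary like the controls) the median log2 fold change was -0.13, with 20 of the 31 genes lower. Within slide 3 (1 control mouse, assumed to vary like the 4 ethanol mice) it was -0.25, with 27 lower. Slide 2 held controls only. With the slide as a fixed block the median was -0.21 with 25 lower, and without slide 2 it was -0.24 with 25 lower. All 4 of these fits gave a negative median, nearest 0 within slide 1. Slide column 4 held only control mice (1, 4 and 5) and column 1 only ethanol mice (2 and 3). With the column as a covariate the median was -0.15 with 23 lower, and without the 2 mice of column 1 it was -0.18 with 24 lower. The difference of Gbp2 was -0.37 over all 10 mice, -0.03 once the column was a covariate and -0.11 without column 1, and that of Ifi44 was -0.46, -0.26 and -0.19. Oas1a went from -0.35 to -0.013 and -0.18, and Oasl2 from -0.34 to -0.0079 and -0.18. By contrast Xaf1 stayed at -0.44 and -0.43 in those fits, and Ifit1 reached -0.76 and -0.59.

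**Figure D4:**
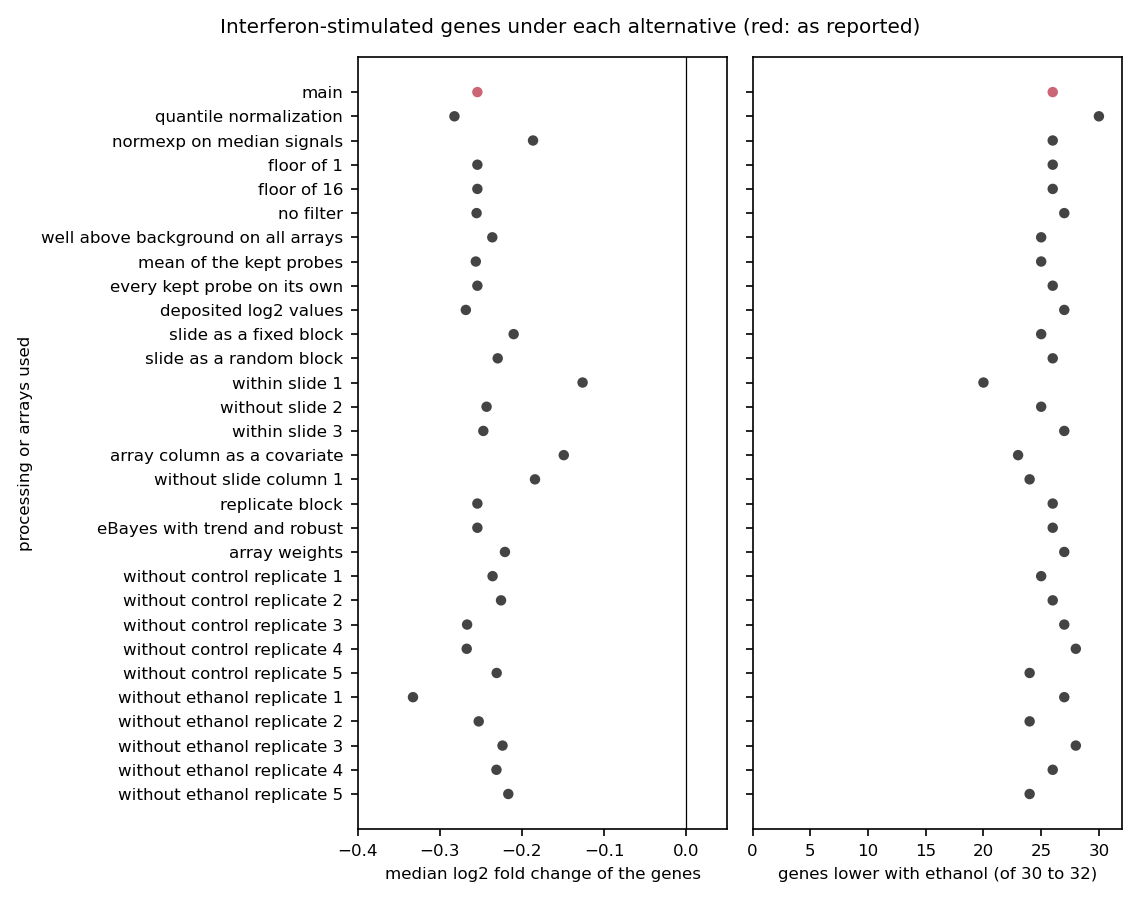
Median log2 fold change over the interferon-stimulated genes (left) and number of them lower with ethanol (right), on the x axes, as reported (red) and under each of 29 alternatives (black), on the y axis. Every median is below 0, from -0.33 to -0.13, and the number lower runs from 20 to 30. Some alternatives cannot change a fold change, so their points repeat the reported one.

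Genes upstream of these effectors were read from lists of the pathway. The counts of these and the later lists stand beside 43.2% of all genes tested lower with ethanol, with a median of 0.03. Of the 21 interferon genes, 18 had a probe and 10 were bright enough to test. Of those 10, 7 were higher and 3 lower with ethanol, with a median of 0.17, and none passed the adjusted threshold. Ifnl3, an interferon lambda, had 0.27 ± 0.13 (SE), Ifna1 had 0.29 ± 0.16 (SE) and Ifna5 had 0.28 ± 0.18 (SE). Those 3 were dim, between -1.61 and -3.36 on average, and the alpha interferon genes are close in sequence, so their probes may not be specific. Interferon beta (Ifnb1) and interferon gamma (Ifng) were among 8 that were below the filter.

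Of 11 receptor, kinase and STAT genes, 8 were lower and 3 higher, with a median of -0.13, and none passed. The type I receptor chains Ifnar1 and Ifnar2 had 0.11 ± 0.17 (SE) and 0.10 ± 0.07 (SE), while Ifngr1, the binding chain for interferon gamma, had -0.17 ± 0.12 (SE). Il10rb, a chain of the interferon lambda receptor, had -0.26 ± 0.18 (SE), and the kinase Jak2 had -0.15 ± 0.08 (SE). The lowest of the list, Ifnlr1, the chain specific to interferon lambda, had -0.94 ± 0.65 (SE). It was dim, above background on 4 control arrays and 1 ethanol array, so it was tested through the control group alone. Control mouse 3 and ethanol mice 2 and 3 lay at the floor of 4 signal units (-6.38), on which the size of its difference depends.

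Sensors and adaptors that switch on interferon genes were lower in 12 of 18 tested, with a median of -0.07, and none passed. Irf8, a factor of myeloid cells, had -0.43 ± 0.19 (SE), the endosomal RNA receptor Tlr3 had -0.34 ± 0.18 (SE), the adaptor Traf3 had -0.18 ± 0.13 (SE), and the endotoxin receptor Tlr4 had -0.08 ± 0.15 (SE). The list of inhibitors of the response was lower in 8 of 11 genes, with a median of -0.11. That list also holds Isg20, which is an effector and not an inhibitor of signalling. Socs1, which blocks Janus kinases, had -0.24 ± 0.19 (SE), Isg20, an RNA exonuclease, had -0.25 ± 0.13 (SE), and Trex1, which degrades cytosolic DNA, had -0.13 ± 0.08 (SE). The lowest inhibitor was Socs3 at -0.67 ± 0.46 (SE), named like Ifnlr1 after its value was seen. Pias4, a SUMO ligase of the PIAS family, was higher by 0.25 ± 0.07 (SE), with no overlap between groups and a limma adjusted p of 0.253.

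A further list of 60 interferon-stimulated genes outside the 34 had 50 tested, 37 lower and 13 higher, with a median of -0.14, and none passed. At an unadjusted p under 0.05 in limma, 5 of the 50 were lower and 0 higher, where 5.22% and 8.12% of all genes tested were. Pml, the scaffold of nuclear bodies, was lower by -0.45 ± 0.10 (SE) with no overlap between groups, limma adjusted p = 0.184. Trim12c, a TRIM protein, had -0.51 ± 0.13 (SE), and Tgtp2, an immunity-related GTPase, had -0.42 ± 0.14 (SE). Cxcl10, a chemokine that draws T cells, had -0.48 ± 0.17 (SE), and Ly6e, a surface protein that restricts viral entry, had -0.20 ± 0.13 (SE). The highest of the list was Sp110 at 0.46, named after its value was seen. It made up 39.1% of the list's summed level, which ran from 473 to 630 in controls and from 511 to 727 with ethanol.

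**Figure D5:**
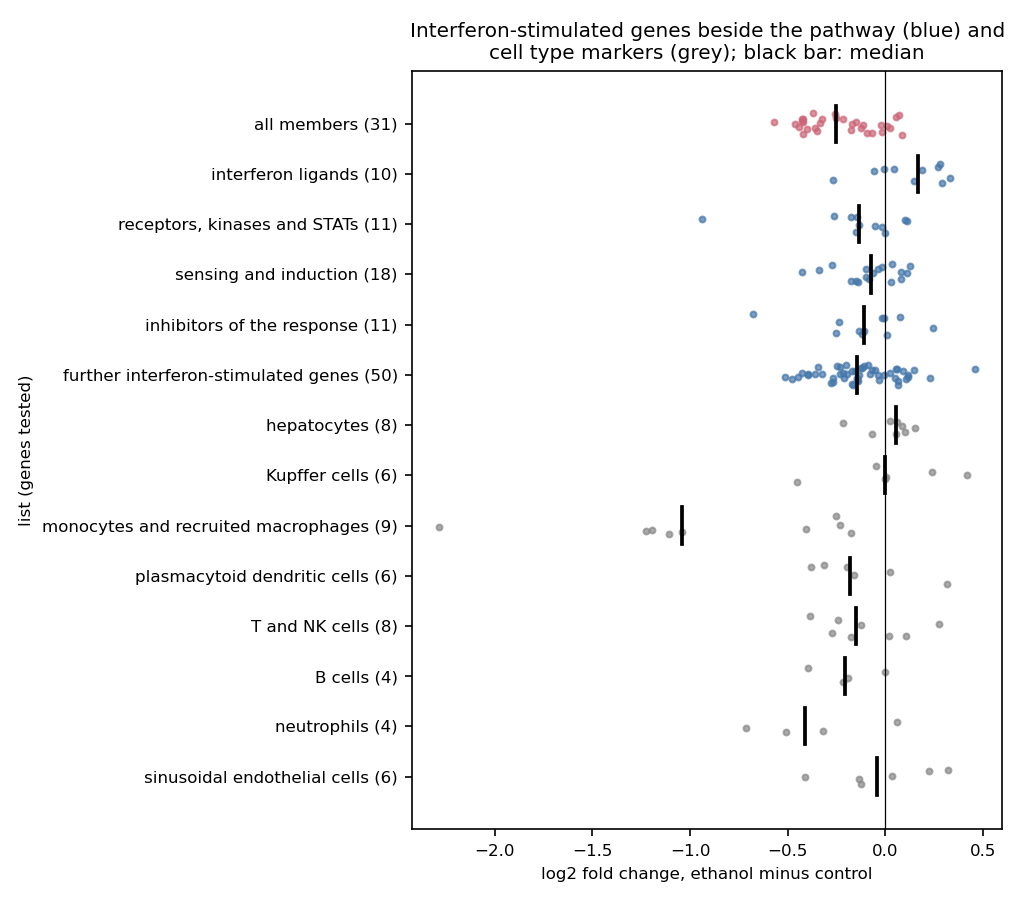
Log2 fold change, ethanol minus control, on the x axis for every tested gene of each list on the y axis, with the 31 interferon-stimulated genes in red, pathway lists in blue, cell type markers in grey and the list median as a black bar. The medians are -0.25 for the 31 genes, 0.17 for the interferon genes and -1.04 for the markers of monocytes and recruited macrophages.

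Markers of cells that can respond to or make interferon were read the same way. All 9 markers of monocytes and recruited macrophages were lower with ethanol, with a median log2 fold change of -1.04, and none passed the adjusted threshold. Ccr2, the receptor that brings monocytes into tissue, had -1.22 ± 0.27 (SE) with no overlap between groups, limma adjusted p = 0.17. Cx3cr1 had -1.19 ± 0.41 (SE). Gpnmb had -2.29 ± 0.99 (SE) and was detected on 5 control arrays but on 3 ethanol arrays, so it was tested through the control group alone. Its value in ethanol mouse 2 was the floor of 4 signal units (-6.38), so the size of its difference depends on that floor. The summed level of these markers, in units of the array's 75th percentile, ran from 29.2 to 44.8 in controls and from 20.7 to 37.4 with ethanol. Their part in the lower interferon-stimulated genes was not tested.

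The other cell types gave smaller medians. Kupffer cell markers were higher in 3 of 6 and lower in 3, with a median of 0.0015. Their summed levels ran from 38.4 to 72.8 in controls and from 37.7 to 80.8 with ethanol. Clec4f had 0.42 ± 0.16 (SE), Timd4 had 0.24 ± 0.24 (SE) and Marco had -0.45 ± 0.46 (SE). Hepatocyte markers were higher in 6 of 8 (median 0.06, summed levels from 2931 to 4016 and from 3304 to 3576). A summed level can rest on 1 bright probe, since Csf3r made up 96.0% of the neutrophil sum and Cd4 87.0% of the T and NK cell sum. Siglech made up 81.6% of the plasmacytoid dendritic cell sum and Cd5l 60.8% of the Kupffer cell sum. Neutrophil markers were lower in 3 of 4 (median -0.41, sums from 57.8 to 81.2 and from 64.9 to 79.7), with S100a8 at -0.71 ± 0.26 (SE), while Cxcr2 was below the filter and Ly6g had no probe. Plasmacytoid dendritic cells, which make much type I interferon, had 4 of 6 markers lower (median -0.18, sums from 127.1 to 205.6 and from 127.1 to 194.2), with Ccr9 below the filter and Siglech, their defining marker, at 0.03. Siglech is given as a defining marker, outside the rule for named genes. It made up most of that sum, whereas Spib and Klk1 had control means of only -2.85 and -2.22. Whether the Siglech probe reads these cells alone in whole liver was not tested. T and NK cell markers were lower in 5 of 8 (median -0.15, sums from 26.7 to 45.3 and from 25.8 to 39.0), with Cd8a and Ncr1 below the filter. B cell markers were lower in 4 of 4 (median -0.20, sums from 1.91 to 2.30 and from 1.69 to 2.17), with Cd79a below the filter. Sinusoidal endothelial markers were lower in 3 of 6 (median -0.04, sums from 23.3 to 30.3 and from 24.4 to 29.7). None of these markers passed the adjusted threshold, and their part in the result was not tested.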

How the data were processed

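Liver RNA of 10 mice was hybridised to 10 one-colour arrays. The authors deposited spot intensities on a linear scale, made with Agilent Feature Extraction 10.7.3.1 per the file headers, from an array designed on mm9. They also deposited log2 values, which follow log2 processed intensity over each array's 75th percentile except for a shift between arrays. The median fold change over all genes was 0.015 on the deposited values and 0.029 as reported. The per-probe centring of the deposited log2 values is unknown, and their making is not stated in the labels. RefSeq or Ensembl identifiers named 32994 of 56605 probes (23611 unnamed).

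Processed intensities, without control and outlier spots, were scaled to the 75th percentile of each array, floored at 4 signal units and put on a log2 scale. Probes well above background on at least 4 of 5 arrays of 1 group were kept (31110), with the brightest kept probe per gene. limma 3.58.1 (R 4.3.3) compared the groups over 15089 genes, with Benjamini-Hochberg adjustment and a threshold of 0.05. SE and intervals are limma's moderated ones. The script was tested on simulated data. The number of arrays limits the precision.

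All 34 genes are named. Values on every array are given for the 12 with the smallest p and for Isg15, Ifit1, Irf7, Irf9, Stat2 and Usp18. From each other list the 3 genes with the smallest p and 8 set genes were eligible. A gene of these lists is not reported here. The genes, lists and tests were chosen with earlier results of these data known. Alternatives changed the normalization, background, floor, filter, probe rule, values, slide, slide column, replicate block, variance model and arrays used.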

Additional observations from a re-analysis of the deposited data

Results flagged for a closer look

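Each gene's 5 values per group were examined for a mouse far from the rest, as the gap to its nearest neighbour over the whole range, against Dixon's limit of 0.71 for 5 samples. Of 62 groups 3 exceeded it, and chance alone gives about 1 in 20. Usp18 in control mouse 4 lay at 1.17 with the next control at 1.64 (ratio 0.746). Dhx58 in control mouse 4 lay at -0.03 with the next at 0.09 (ratio 0.75). Gbp7 in ethanol mouse 5 lay at -1.78 with the next at -1.21 (ratio 0.75). In control mouse 4 the 2 low genes are the ISG15 protease and an RNA sensor, and 12 of the 31 genes lay above their mean there.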

How the results depend on the processing

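No gene of the 31 passed the adjusted threshold under any of 29 alternatives, where the smallest adjusted p was 0.0773 (0.156 as reported). The median stayed below 0, but was -0.13 within slide 1. The count lower at an unadjusted p under 0.05 in limma was 7 as reported (5.22% of all genes). It became 11 with quantile normalization (7.78% of all genes) and 11 with the slide as a random block (7.34%). It became 4 with the slide as a fixed block (2.51%) and 3 without slide 2 (3.81%). It ran from 5 to 11 as each array was left out, where 3.64% to 6.56% of all genes were lower at that p. Without overlap, 1 gene was lower with normexp (1.03% of all genes), 4 without slide 2 (2.8%) and 4 without slide column 1 (2.47%, and 1 higher, 5.63%). That count was 2 to 5 as each array was left out, where 1.23% to 2.39% of all genes were lower without overlap. Some of the 29 alternatives change only the variance model or the design and leave fold changes as they were. Among them are the replicate block, eBayes with trend and robust, and every kept probe on its own. The next counts include such values, which could not turn. Of 31 genes, 19 kept their sign throughout (18 lower, 1 higher), and 44 of 898 values turned. These were, with the column as a covariate, Stat2 0.040, Ifi27l2a 0.095, Irf7 0.039, Oasl1 -0.052 and Oas2 0.35. Without slide column 1 they were Herc6 -0.019, Oas2 0.096, Oasl1 -0.078, Irf7 0.022, Ifi27l2a 0.060 and Stat2 0.015. Within slide 1 they were Irf9 0.079, Irf7 0.057, Stat2 0.035, Eif2ak2 0.14, Ifih1 0.041 and Gbp7 0.017, and within slide 3 Usp18 -0.22, Oasl1 -0.036 and Oas2 0.53. Oas2 was 0.20 with the slide as a fixed block and 0.13 without slide 2. Under quantile normalization Oasl1 was -0.046, Usp18 -0.0030, Bst2 -0.030 and Herc6 -0.0029. Oasl1 was -0.0047 with array weights and -0.0060 on the deposited log2 values, and Irf7 was 0.012 on the mean of kept probes. As each array was left out, Gbp7 ran from -0.19 to 0.0061, Herc6 from -0.012 to 0.26, Irf7 from -0.078 to 0.027, Oas2 from -0.14 to 0.16, Oasl1 from -0.050 to 0.066 and Usp18 from -0.081 to 0.13. The cause was not tested. Same-numbered mice share only a number (correlations of deviations 0.3241, 0.1480, 0.3111, 0.0643 and -0.1100; 1 of 5 controls correlated best with its own number), and the replicate block moved the unadjusted count to 11 (7.58% of all genes), with 0 genes past the adjusted threshold. Normexp used median signals, since mean signals were not used here.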
